A study of Mus musculus with 32 samples.

Results

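The 10 genes described here make and load the peptides that class I major histocompatibility (MHC) molecules display. They were taken by symbol from the 29511 genes of the count table, and all 10 were found there and among the FPKM values. They fall into 5 roles. *Psmb8*, *Psmb9* and *Psmb10* encode the catalytic subunits of the immunoproteasome, *Psme1* and *Psme2* the chains of the PA28 proteasome activator, and *Tap1* and *Tap2* the chains of the peptide transporter of the endoplasmic reticulum. *Tapbp* encodes tapasin, which holds empty class I molecules at that transporter. *Pdia3* encodes ERp57, its oxidoreductase partner, and *Erap1* an aminopeptidase that trims peptides inside the endoplasmic reticulum.

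The proteasome degrades proteins in the cytosol of every cell. Under interferon gamma, and in many leukocytes at rest, newly built 20S cores receive the immunosubunits in place of the constitutive catalytic subunits *Psmb5*, *Psmb6* and *Psmb7*, which alters the peptides that are cut. The peptides pass through the TAP transporter, are trimmed, and are loaded on class I molecules that CD8+ T cells inspect on the cell surface. Tumor cells and the lung epithelium both express this machinery, as do the leukocytes among them.

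The hosts were virgin female FVB/N mice of 6 to 8 weeks of age, wildtype (WT) or whole-body *Clic4* knockout (KO) littermates from heterozygous intercrosses, and the comparisons addressed what the host genotype alters in the tumor and in the lung. The 6 groups were sequenced as bulk mRNA. Primary tumors were taken 14 days after 6DT1 cells, a mammary tumor line from an MMTV-Myc FVB mouse, were placed orthotopically in the fourth mammary fat pad of KO (n = 6) or WT (n = 6) hosts. Lungs labelled pre-metastatic were taken from tumor-bearing KO (n = 6) and WT (n = 6) mice at the same time, and baseline (control) lungs from KO (n = 4) and WT (n = 4) mice without a tumor. The 6DT1 cells carry an intact *Clic4* gene in hosts of either genotype, and the KO allele lacks only a region around exon 2, so reads from the rest of the gene remain. Libraries of a group came from independent animals by the study's account, and the labels do not say which tumor and lung came from the same mouse.

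Each library held 4446323 to 8318711 expected counts (median 5384934), and a member gene had between 73 and 2342 counts in a library. *Clic4* itself was lower in KO than in WT control lungs by 1.45 on the log2 scale (FDR 1.73e-07) and in 14-day KO lungs by 1.49 (FDR 2.06e-09). In the tumors it was lower by 0.21 (FDR 0.034). The summed FPKM of 6 lung epithelial markers was 0.34 to 3.24 in the tumors and 32329 to 38851 in the lungs, so each tissue bore its label. All 10 members passed the filter on low counts in both tissues.

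Of the 10 genes, 5 lie in the class II part of the MHC on chromosome 17 (GRCm38, GENCODE M21), or close to it. *Psmb9* (chr17:34181987-34187764, minus strand) and *Tap1* (chr17:34187553-34197225, plus strand) are divergent and share 212 bases at their 5′ ends. *Psmb8* (chr17:34197721-34201454) begins 495 bases after *Tap1* ends, and *Tap2* (chr17:34203527-34216321) begins 2072 bases after *Psmb8*. *Tapbp* (chr17:33915899-33929292) lies 252694 bases before *Psmb9*. The others are *Psmb10* (chr8:105935735-105938444), *Psme1* (chr14:55578123-55581529), *Psme2* (chr14:55587441-55591113), *Erap1* (chr13:74639568-74693201) and *Pdia3* (chr2:121413775-121438687). *Psme2* has a near-identical copy, *Psme2b*, which received 11 to 135 counts against 187 to 1163 for *Psme2*, and reads could be split between them. *Tapbp* shares 3422 bases with *Zbtb22* on the same strand.

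Short stretches of the start regions are shown because interferon-responsive motifs there were searched for by letters alone. RefSeq promoter windows (250 bases before to 50 after each start, GRCm38.p6) were at hand for 9 of the 10 members, all but *Tap2*, and motifs were searched on both strands. The gamma-activated site TTCNNNGAA was present in 1 member window, that of *Psmb8*, and in 8.30% of all 32851 windows. The interferon-stimulated response element (GAAA, any 2 bases, GAAA) was present in 2, those of *Psme1* and *Erap1*, and in 3.44% of all windows. The Y box letters CCAAT, a part of class I and class II promoters that is also common elsewhere, were present in 4 (*Psmb9*, *Tap1*, *Tapbp*, *Pdia3*) and in 37.4% of all windows. The kappaB site (GGG, any 2 bases, TTTCC) was in none of the 9 and in 1.63% of all windows. The motif is in capitals, the sequences read 5′ to 3′ on the plus strand, and the 2 response elements were matched on the minus strand.
Psmb8, chr17:34198088-34198117: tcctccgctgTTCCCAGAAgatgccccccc
Erap1, chr13:74639839-74639868: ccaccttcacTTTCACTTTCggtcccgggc
Psme1, chr14:55578493-55578522: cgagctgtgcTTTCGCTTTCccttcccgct
Tap1 and Psmb9, chr17:34187322-34187351: gggctcggctttCCAATcagcggctgcgcg

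The *Psmb8* motif begins 97 bases before the RefSeq start, that of *Erap1* 4 bases before it, and that of *Psme1* 9 bases after it. All of these stretches fall in untranslated exons of at least 1 annotated transcript. The starts of *Tap1* and *Psmb9* have 225 bases between them, their windows share 275 bases, and the CCAAT shown lies in both. A match is a description of letters, not a bound site.

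In tumors, 8 of the 10 genes were higher in KO than in WT hosts and none was lower, by the edgeR quasi-likelihood test at an FDR below 0.05. The largest differences were in 2 immunosubunits and both transporter chains, each past 2-fold, and smaller ones followed in *Psmb10*, *Tapbp*, *Psme2* and *Erap1*. Of all 13830 genes tested in tumors, 2.02% were higher and 0.492% lower at that FDR, and 1.01% were higher by more than 2-fold, against 4 of the 10 members. The median log2 difference of the members was 0.75 and that of all genes -0.01. In bulk tissue, more cells of a type that expresses a gene and more of its RNA per cell cannot be told apart.

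**Figure D1:**
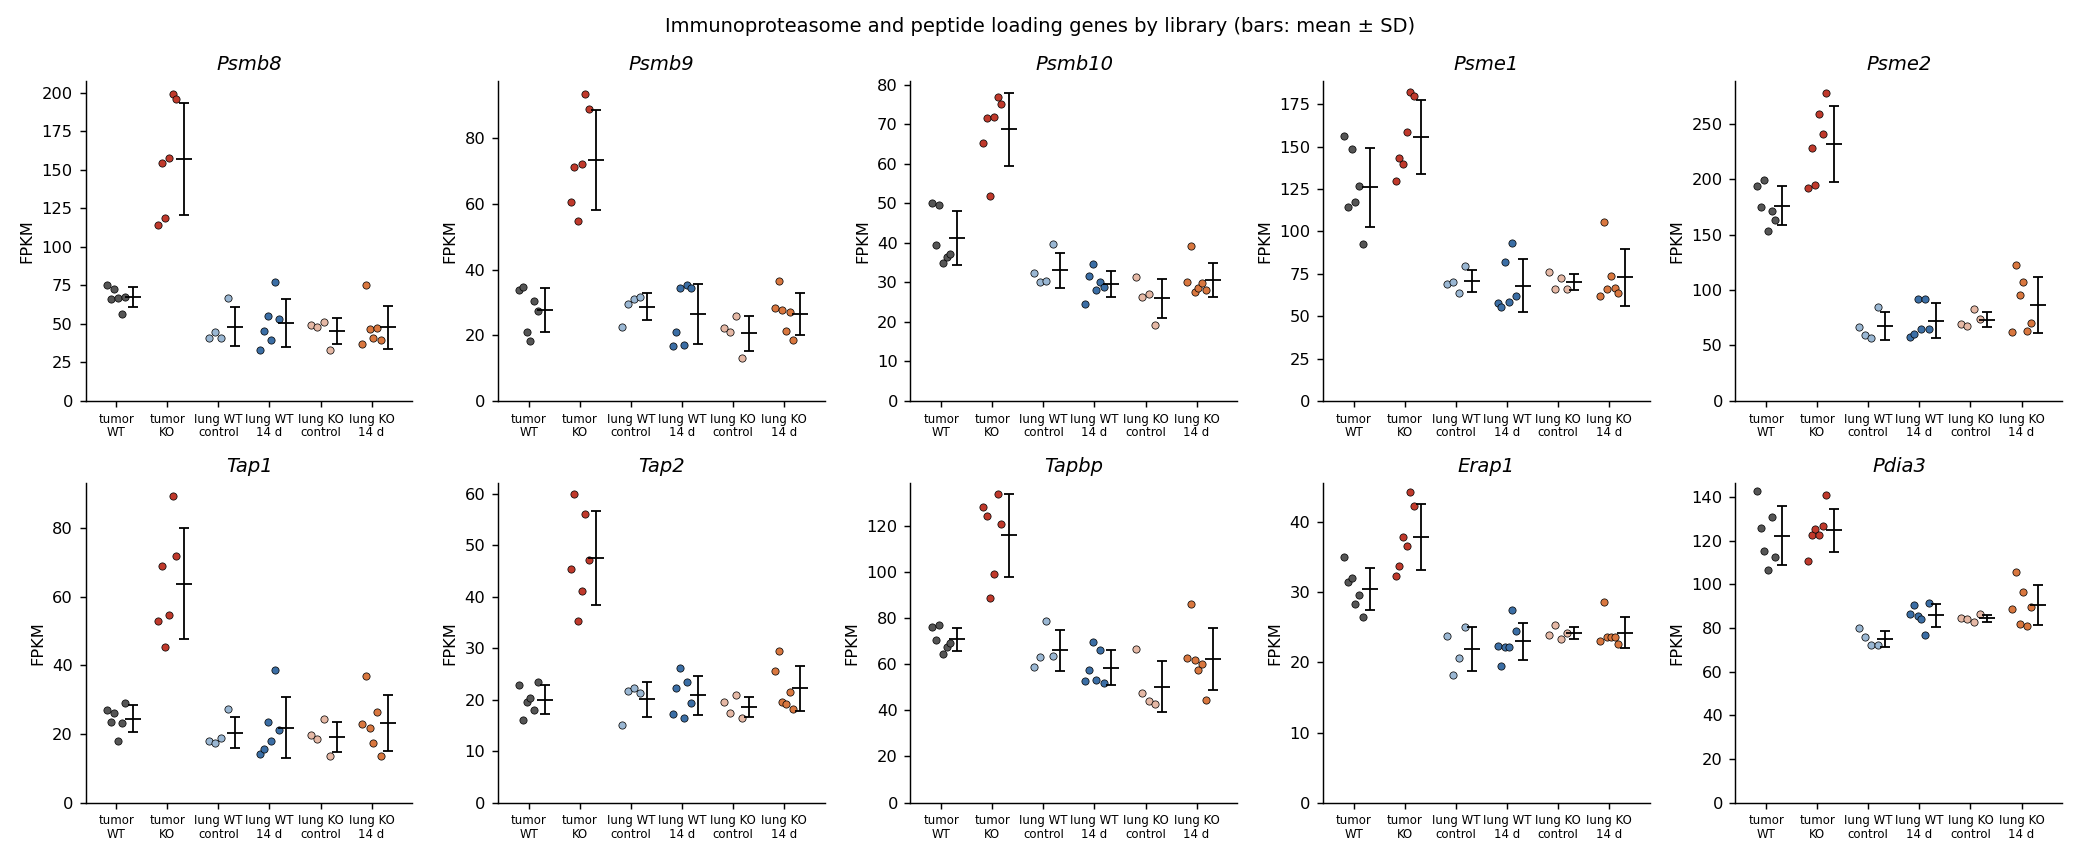
FPKM (y axis) of each of the 10 genes in every library, by group (x axis), with bars for the mean ± SD (n = 6, or 4 in control lungs). For *Psmb8*, *Psmb9*, *Psmb10*, *Tap1*, *Tap2* and *Tapbp* the 6 tumors from KO hosts lie above all 6 WT tumors.

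The immunosubunits were first compared. *Psmb8*, the chymotrypsin-like subunit also called LMP7, had an FPKM of 56.4 to 75.2 (median 67.1) in WT tumors and of 114 to 199 (median 156) in KO tumors. *Psmb9* (LMP2) had 18.1 to 34.8 (median 29.01) and 54.9 to 93.4 (median 71.6). *Psmb10* (MECL-1) had 34.9 to 49.97 (median 38.2) and 51.7 to 76.9 (median 71.7). For all 3 the lowest KO tumor was above the highest WT tumor. *Psmb8* was 2.49-fold higher (log2 1.32, SE 0.13, FDR 8.87e-05), *Psmb9* 3.15-fold (log2 1.66, SE 0.14, FDR 4.33e-05) and *Psmb10* 1.73-fold (log2 0.79, SE 0.11, FDR 0.000683).

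The PA28 chains differed less. *Psme1* had an FPKM of 92.7 to 156 (median 122) in WT tumors and of 129.5 to 182 (median 151) in KO tumors, and the groups overlapped. Its log2 difference of 0.37 (SE 0.10) did not pass (FDR 0.0823). *Psme2* had 153 to 199 (median 173) and 192 to 277 (median 234), also overlapping, and passed with a log2 difference of 0.41 in favor of KO tumors (SE 0.09, FDR 0.0220). The calls for both chains turned on single libraries. *Psme2* no longer passed without KO tumor 5, KO tumor 6, WT tumor 2, WT tumor 4 or WT tumor 5 (FDR 0.0568 to 0.0749 in these 5), and *Psme1* passed without WT tumor 1 (FDR 0.0417).

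The transporter chains rose together in KO tumors. *Tap1* had an FPKM of 17.9 to 28.9 (median 24.8) in WT tumors and of 45.3 to 89.3 (median 61.8) in KO tumors, a 2.86-fold difference (log2 1.52, SE 0.16, FDR 8.89e-05). *Tap2* had 16.04 to 23.5 (median 19.9) and 35.3 to 59.9 (median 46.3), a 2.42-fold difference (log2 1.28, SE 0.13, FDR 8.87e-05). Neither gene's groups overlapped. The ratio of *Tap1* to *Tap2* FPKM was 1.23 ± 0.20 in WT tumors and 1.34 ± 0.18 in KO tumors (SD, n = 6 each), a shift within the spread.

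Of the loading and trimming genes, *Tapbp* had an FPKM of 64.5 to 77.1 (median 69.7) in WT tumors and of 88.5 to 134 (median 122) in KO tumors, with no overlap (1.64-fold, log2 0.71, SE 0.10, FDR 0.00101). *Erap1* had 26.5 to 35.1 (median 30.5) and 32.3 to 44.4 (median 37.3). Its groups overlapped, and it passed with a log2 difference of 0.36 (SE 0.08, FDR 0.0163), KO above WT. That call was lost without KO tumor 6 (FDR 0.0530) or WT tumor 5 (FDR 0.0605). *Pdia3*, which also folds many glycoproteins other than class I molecules, had 107 to 143 (median 120) and 110 to 141 (median 124), and did not pass (log2 0.08, SE 0.07, FDR 0.616).

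In FPKM, all 6 KO tumors lay above all 6 WT tumors for 6 of the 10 members, against 1.05% of the 13804 genes compared in this way. KO tumor 5 was the highest KO tumor in 7 of the 10 genes, and WT tumor 1 the highest WT tumor in 5. Leaving out either of them did not end the call of any gene whose groups did not overlap. With each tumor left out in turn, between 6 and 9 members were called, and the count past 2-fold was 4 each time. Without WT tumor 2, whose leukocyte marker sum was the highest of its group, 7 members were called.

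**Figure D2:**
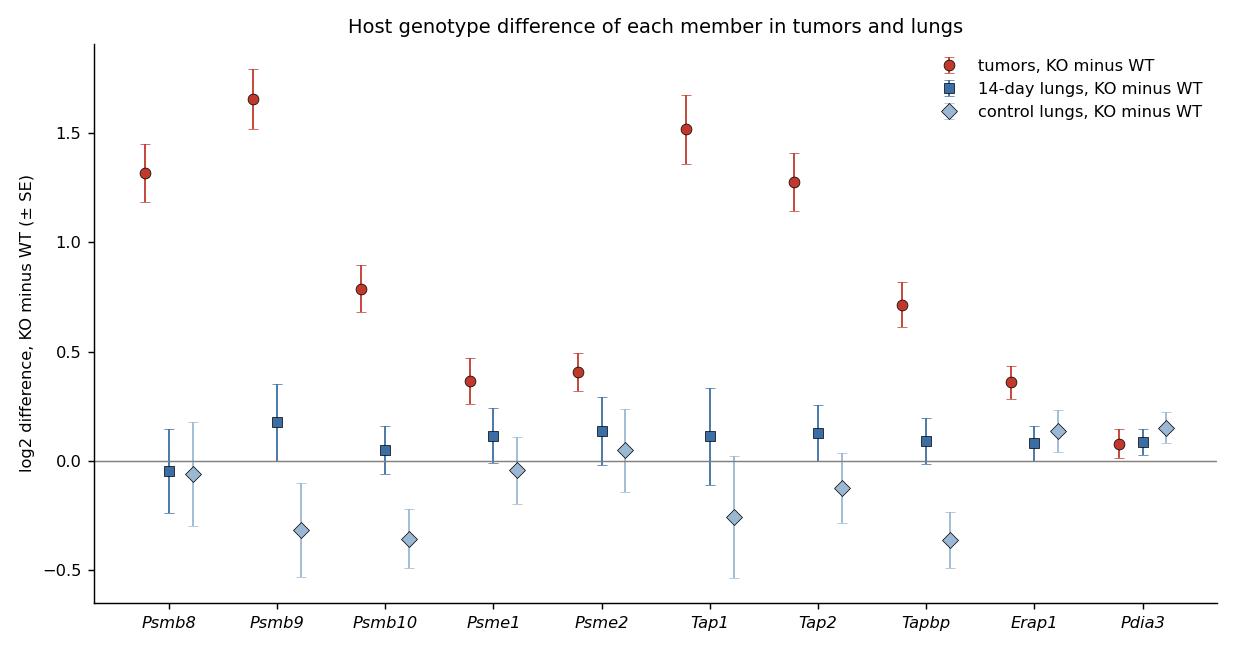
Log2 difference between KO and WT hosts (y axis) for each gene (x axis) in tumors, 14-day lungs and control lungs, with bars of ± 1 SE from the edgeR fits. In tumors the points run from 0.08 (*Pdia3*) to 1.66 (*Psmb9*). In lungs they lie between -0.36 and 0.18.

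Because each immunosubunit takes the place of a constitutive subunit, their transcripts were also set against each other as a ratio of FPKM values, which are per length. The ratio of *Psmb8* to *Psmb5* was 1.78 ± 0.11 in WT tumors (1.62 to 1.88) and 4.07 ± 1.20 in KO tumors (2.54 to 5.41, SD, n = 6 each). The ratio of *Psmb9* to *Psmb6* was 0.28 ± 0.07 (0.203 to 0.367) and 0.67 ± 0.13 (0.484 to 0.856). The ratio of *Psmb10* to *Psmb7* was 0.63 ± 0.09 (0.522 to 0.787) and 1.10 ± 0.19 (0.833 to 1.40). In each ratio the 6 KO tumors were all above the 6 WT tumors. With 1 added to each FPKM, the log2 differences were 1.12 (SE 0.19), 1.24 (SE 0.19) and 0.79 (SE 0.13). Each had a two-sided exact permutation p of 0.00216, the smallest that 6 against 6 allows, and an adjusted p of 0.0108 over the 15 ratio tests.

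**Figure D3:**
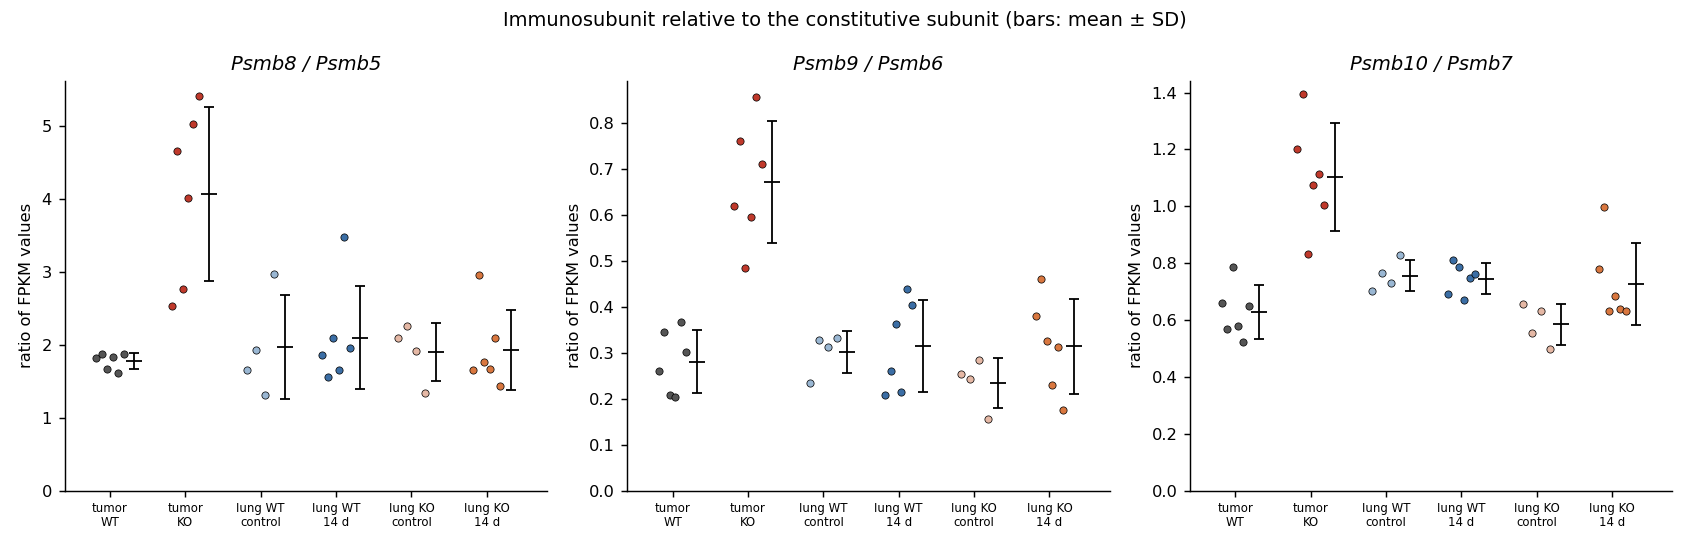
Ratio of immunosubunit to constitutive subunit FPKM (y axis) in every library by group (x axis), with mean ± SD. The KO tumors have means of 4.07, 0.67 and 1.10 for *Psmb8*/*Psmb5*, *Psmb9*/*Psmb6* and *Psmb10*/*Psmb7*, against 1.78, 0.28 and 0.63 in WT tumors. The means of the lung groups lie close to those of the WT tumors.

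No gene in the lists of the rest of the proteasome passed in tumors. None of the 3 constitutive catalytic subunits passed (*Psmb5* 0.10, FDR 0.653; *Psmb6* 0.19, FDR 0.341; *Psmb7* -0.00), and their FPKM in WT and KO tumors was 37.8 ± 3.59 and 39.4 ± 4.35, 99.4 ± 16.8 and 110 ± 12.5, and 65.8 ± 6.87 and 63.1 ± 9.01 (SD, n = 6). None of 11 other 20S subunits was called (median log2 difference 0.05), nor any of 18 subunits of the 19S regulator (median 0.05). Among the genes with the smallest p in these 2 lists were *Psma4* (0.23, FDR 0.288), *Psmb2* (0.22, FDR 0.281), *Psmd8* (0.28, FDR 0.170) and *Psmd6* (-0.13, FDR 0.445). None of 8 other activators, inhibitors and assembly factors was called (median 0.02), with *Pomp*, which helps build the 20S core, at 0.29 (FDR 0.0944).

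Later steps of the route were mixed. Among 8 genes of peptide loading and the endoplasmic reticulum chaperones, 1 was higher in KO tumors, *Tapbpl* (0.76, SE 0.13, FDR 0.00500), whose product TAPBPR edits class I peptides away from the transporter. *Calr*, the chaperone calreticulin, had 0.26 (FDR 0.154). Among 7 other trimming peptidases, 1 was higher, *Lap3*, a cytosolic leucine aminopeptidase (0.39, SE 0.09, FDR 0.0314). All 3 class I chains were higher, with *H2-K1* at 1.18 (FDR 8.87e-05), *H2-D1* at 1.02 (FDR 0.000189) and *B2m*, their shared light chain, at 0.95 (FDR 0.000426). The class I heavy chain genes are alike in sequence, and reads could be split among them. None of the genes in these 3 lists was called lower. Of the 7 trimming peptidases, *Lap3* alone had a value above 0 (list median -0.02, lowest -0.15).

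Of 11 regulators of the class I pathway, 10 were tested and 6 were higher in KO tumors, with a median of 0.61. *Nlrc5*, the transactivator of class I genes, had the largest log2 difference among them, 1.76 (SE 0.17, FDR 6.93e-05). *Irf1*, a transcription factor of the interferon response, had 1.16 (SE 0.10, FDR 4.33e-05). None of the 10 was lower. *Ifng* had too few counts to be tested, with 0 to 3 in WT tumors and 2 to 17 in KO tumors.

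**Figure D4:**
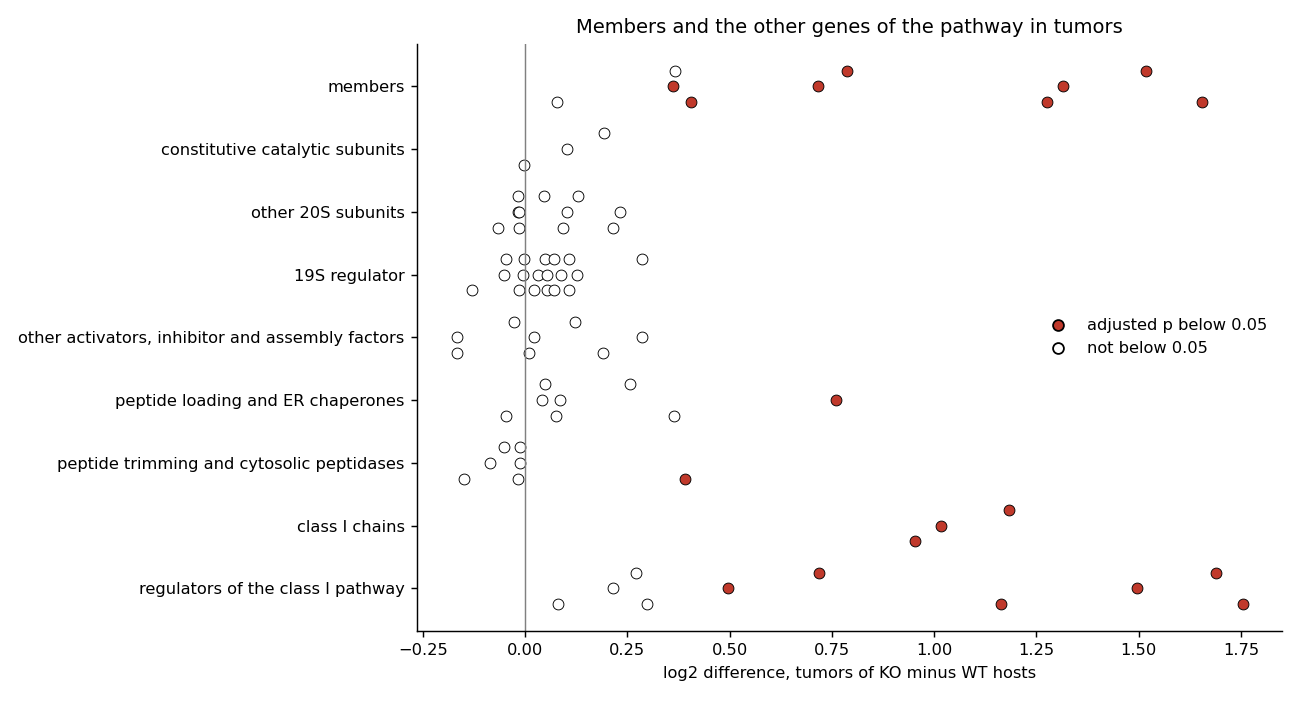
Log2 difference between KO and WT tumors (x axis) for each gene of the listed steps of the class I route (y axis), with genes at an FDR below 0.05 in red. The catalytic, 20S and 19S lists sit around 0 with medians of 0.10, 0.05 and 0.05, while the members, the class I chains and the regulators have medians of 0.75, 1.02 and 0.61.

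Most markers of leukocytes also had values above 0 in KO against WT tumors, though most did not pass. These were all 4 pan-leukocyte (median 0.55), all 7 tested T cell (median 1.13) and 3 of 4 tested NK cell markers (median 0.48). Of the 8 macrophage and monocyte markers, 7 were above 0. The summed FPKM of 4 pan-leukocyte markers was 78.4 to 239 (median 145) in WT tumors and 193 to 281 (median 246) in KO tumors, and 1 of the 4, *Laptm5*, passed (0.47, FDR 0.033), while *Ptprc* had 0.63 (FDR 0.146). The sum of 8 T cell markers was 11.96 to 44.5 (median 19.1) and 28.6 to 49.9 (median 39.8). Of these, 7 were tested and 2 passed, *Cd3d* (1.46, FDR 0.0391) and *Cd3g* (1.31, FDR 0.0389), while *Cd8a* had 1.14 (FDR 0.279) and *Cd4* 0.66 (FDR 0.304). The sum of 5 NK cell markers was 4.65 to 15.5 and 10.0 to 19.1, and 1 of 4 tested passed, *Klrk1* (1.18, FDR 0.0306). None of 8 macrophage and monocyte markers passed (median 0.43, sums 379 to 904 and 584 to 1145), and none did among those of dendritic cells (6), neutrophils (4 tested), endothelium (4 tested), fibroblasts (5) and epithelium (5). No defining marker of these cell types was at 0 in every tumor of either genotype. The part of these cells in the differences of the members was not tested.

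WT tumor 2 held many leukocyte transcripts. Its T cell sum of 44.5 was above those of 5 of the 6 KO tumors, its leukocyte sum of 239 above those of 3, and its B cell sum was 25.9 against 0.28 to 2.79 in all other tumors. Its FPKM was 65.9 for *Psmb8*, 23.5 for *Tap1*, 16.04 for *Tap2* and 70.4 for *Tapbp*, each within the range of the WT group, with *Tap2* the lowest of that group. For *Psmb9* it was the highest WT tumor, at 34.8, below the lowest KO tumor at 54.9. KO tumor 3, with the lowest T cell sum of its group (28.6), also had the lowest FPKM of its group for *Psmb9*, *Psmb10*, *Tap1*, *Tap2* and *Tapbp*. KO tumor 2, with the lowest leukocyte sum of its group (193), had the highest *Tap2* of its group (59.9), with 68.9 for *Tap1* and 124 for *Tapbp*. WT tumor 4 had the lowest leukocyte (78.4), T cell (11.96) and B cell (0.28) sums of its group, and the lowest FPKM of its group for 6 of the 10 members. Summed over the 10 members, FPKM was 813, 697, 760.5, 629, 690.03 and 648 in WT tumors 1 to 6, whose leukocyte sums were 231, 239, 147, 78.4, 143 and 137. In KO tumors 1 to 6 the members' sums were 931, 1078, 893, 1073, 1243 and 1241 and the leukocyte sums 222, 193, 206, 275, 270.4 and 281. KO tumors 5 and 6 had the highest sums of the members, with T cell sums of 39.8 and 49.9.

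In lungs, none of the 10 genes was called by edgeR in any of the 4 comparisons, each at an FDR below 0.25 and a change of more than 1.5-fold. None passed that FDR without the fold limit. Some other settings gave an FDR below 0.25, always short of 1.5-fold. With against without a tumor, these were *Tapbp* in KO lungs (down to 0.183) and *Pdia3* in WT lungs (0.150). Between genotypes in control lungs, they were *Tapbp* (0.112), *Psmb10* (0.242) and *Pdia3* (0.246). In WT lungs 0.574% of the 16029 genes tested were called between 14 days and control. In KO lungs 0.262% were. Between KO and WT lungs, 0.212% were called at 14 days and 0.231% in controls. At an unadjusted p under 0.05, the members counted 1, 1, 0 and 3 in this order (1884, 1385, 1337 and 1860 of all genes), and DESeq2 called 0 members by the same rule. The 4 comparisons share their groups, so their values are set side by side and not compared.

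*Tapbp* and *Psmb10* came nearest to a genotype difference in control lungs. *Tapbp* had an FPKM of 58.6, 63.1, 78.9 and 63.5 in WT control lungs and of 66.8, 47.4, 44.2 and 42.7 in KO control lungs (log2 -0.36, SE 0.13, FDR 0.301). A single KO lung lay within the WT range and the other 3 were below it. *Psmb10* had 32.4, 30.02, 30.3 and 39.6 in WT and 31.2, 26.2, 27.1 and 19.2 in KO control lungs (log2 -0.36, SE 0.13, FDR 0.335), again with 1 KO lung inside the WT range. *Psmb9* had 22.5, 29.6, 31.0 and 31.6 in WT and 22.1, 21.1, 25.7 and 13.2 in KO control lungs (log2 -0.32), with overlap. *Pdia3* had 80.1, 75.9, 72.1 and 72.2 in WT and 84.4, 84.0, 82.8 and 86.4 in KO control lungs. The groups were apart, but the log2 difference was 0.15 (SE 0.07, FDR 0.424). Over the members the median difference was -0.09. Lymphoid markers had lower values in the same KO control lungs, with all 8 of T cells (median -0.39), all 5 of B cells (median -0.79), all 5 of NK cells (median -0.51) and all 4 of leukocytes (median -0.22) below 0 and none called. Their summed FPKM in WT and KO control lungs was 46.5 to 63.9 and 35.7 to 57.2 for T cells, and 37.2 to 53.7 and 13.5 to 35.5 for B cells, and their part in the values of the members was not tested. KO control lung 4 was the lowest of its group in 7 of the 10 genes and WT control lung 4 the highest of its group in 7.

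At 14 days, KO and WT lungs differed by -0.05 to 0.18 on the log2 scale over the 10 genes (median 0.10). *Psmb8* had an FPKM of 33.3 to 77.0 (median 49.2) in WT and of 37.1 to 75.1 (median 43.8) in KO lungs. *Psmb9* had 16.7 to 35.2 (median 27.7) and 18.4 to 36.7 (median 27.4), and *Tap1* 14.1 to 38.7 (median 19.6) and 13.7 to 36.8 (median 22.3). The ranges of the genotypes overlapped in each of these genes. KO 14-day lung 2 was the highest of its group in all 10 genes, and WT 14-day lung 5 the highest of its group in 6.

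With a tumor against without, WT lungs differed by -0.18 (*Psmb9*) to 0.19 (*Pdia3*, SE 0.07, FDR 0.282), and KO lungs by 0.01 to 0.40. All 10 values were above 0 in KO lungs (median 0.18), the largest being *Tap1* (0.40, SE 0.26) and *Tapbp* (0.37, SE 0.12, FDR 0.304). The test of the difference between genotypes in this response called 0.0499% of the 16029 genes at an FDR below 0.25, and none of the members. The members' response differences ran from -0.07 to 0.49, with *Psmb9* at 0.49 (SE 0.28, FDR 0.662), *Tapbp* at 0.45 (SE 0.17, FDR 0.451) and *Psmb10* at 0.41 (SE 0.17, FDR 0.527), and 2 of the 10 had an unadjusted p under 0.05 (1367 of all genes). Of 5 neutrophil markers, 3 were called higher with a tumor in WT and 2 in KO lungs, and their sum overlapped, at 68.3 to 181 in control and 55.7 to 802 in 14-day lungs. In KO lungs with against without a tumor, values above 0 were found for all 4 leukocyte markers (median 0.32) and all 5 of B cells (median 0.35). So were 7 of 8 of T cells (median 0.16) and 1 of 5 of NK cells (median -0.25), none of them called. None of the 8 T cell, 5 B cell, 5 NK cell and 4 leukocyte markers was called in this response difference, in which all T cell (median 0.49), all B cell (median 1.00) and all leukocyte (median 0.43) markers had values above 0, as had 3 of the 5 of NK cells (median 0.18). The part of these cells in the values of the members was not tested.

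The group means of the subunit ratios in lungs lay near those of WT tumors. They were 1.90 to 2.10 for *Psmb8* to *Psmb5*, 0.23 to 0.31 for *Psmb9* to *Psmb6* and 0.59 to 0.76 for *Psmb10* to *Psmb7*. Single lungs reached into the range of KO tumors for *Psmb8* to *Psmb5* (up to 3.48, lowest KO tumor 2.54) and *Psmb10* to *Psmb7* (0.998 and 0.833). For *Psmb9* to *Psmb6* none did (0.459 and 0.484). None of the 12 lung tests passed an adjusted p of 0.05. The nearest was *Psmb10* to *Psmb7* between KO and WT control lungs (log2 -0.36, SE 0.10), with a two-sided exact permutation p of 0.0286, the smallest that 4 against 4 allows, and an adjusted p of 0.107. The 2 groups did not overlap in this ratio (0.500 to 0.656 in KO, 0.702 to 0.828 in WT). With so few lungs, not passing does not show that they were alike.

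Whether the genotype difference in tumors was itself unlike that in 14-day lungs was tested in a fit of these 24 libraries. It was larger in tumors for 5 of the 10 genes at an FDR below 0.05, against 0.558% of the 16115 genes tested. *Psmb9* differed by 1.47 on the log2 scale (SE 0.22, FDR 0.00142), *Tap2* by 1.14 (SE 0.20, FDR 0.00480) and *Psmb8* by 1.36 (SE 0.25, FDR 0.00832). *Psmb10* (0.73, SE 0.15, FDR 0.0244) and *Tap1* (1.40, SE 0.31, FDR 0.0348) passed by less. The remaining members did not pass, from *Tapbp* (0.62, SE 0.17, FDR 0.0929), *Erap1* (0.27, SE 0.11), *Psme2* (0.26, SE 0.20) and *Psme1* (0.24, SE 0.19) to *Pdia3* (-0.01, SE 0.09, FDR 0.993). In the same test all 8 T cell markers (median 0.89), all 4 leukocyte markers (median 0.47) and 3 of 4 NK cell markers (median 0.80) had values above 0, all 5 B cell markers had values below 0 (median -2.11), and 1 of these passed, *Klrk1* (1.70, FDR 0.0332). No B cell marker had enough counts to be tested in the fit of tumors alone. The B cell sum was 25.9 in WT tumor 2 and 0.28 to 2.79 in the other tumors. The part of these cell types in the result was not tested.

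Single libraries decided 3 of these calls. *Psmb10* was lost without KO lung 3, WT lung 3, KO tumor 5, KO tumor 6 or WT tumor 5 (FDR 0.0528 to 0.0586). *Tap1* was lost without any of 14 of the 24 libraries, namely KO lungs 1, 3, 4 and 6, WT lungs 3, 5 and 6, KO tumors 2, 5 and 6 and WT tumors 2, 3, 4 and 5 (FDR 0.0506 to 0.0762), while its difference stayed between 1.19 and 1.43 in these fits. *Tapbp* passed without KO lung 2 (0.74, FDR 0.00672) or KO tumor 3 (0.69, FDR 0.0321). With limma on log2(FPKM + 0.1) *Psmb9* (FDR 0.0567), *Psmb10* (0.0656) and *Tap1* (0.110) were lost, with limma on log2(FPKM + 1) *Tap1* was lost (0.0885), and with DESeq2 *Tapbp* passed (0.0460).

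In WT hosts, tumor was set against 14-day lung in the same fit. Here 37.1% of the 16115 genes were higher in tumor, and 7 of the 10 members were. *Psme2* differed most (log2 1.40, SE 0.14, FDR 1.38e-09), then *Psme1* (0.94, FDR 7.26e-07), *Pdia3* (0.55, FDR 5.30e-08), *Psmb10* (0.52, FDR 0.000138), *Erap1* (0.44, FDR 2.37e-05), *Psmb8* (0.41, FDR 0.0408) and *Tapbp* (0.36, FDR 0.00865). *Psmb9* (0.06), *Tap1* (0.16) and *Tap2* (-0.00) did not pass. All 3 constitutive catalytic and all 11 other 20S subunits were higher in tumor too. Of the 8 loading genes and chaperones, 7 were higher and 1 lower. Marker medians differed between the tissues, at -4.30 for endothelium, -3.41 for neutrophils, -1.19 for T cells and 0.95 for macrophages and monocytes. The part of these cells in the values of the members was not tested here. The *Psmb8* call was lost when any of 11 of the 24 libraries was left out (FDR up to 0.107), these being KO lungs 4 and 6, WT lungs 1, 2, 4 and 6, KO tumor 6 and WT tumors 1, 3, 4 and 6. It was also lost in 4 of 8 other settings, with DESeq2 (FDR 0.0558), RLE size factors (0.0668), no filter on low counts (0.0540) and at least 10 counts in every library (0.106).

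Across the 6 groups, tumors of KO hosts had the highest mean FPKM of every member. For *Psmb8*, *Psmb9*, *Psmb10*, *Tap1*, *Tap2* and *Tapbp* their range was apart from that of the next group. For *Psme1*, *Psme2*, *Erap1* and *Pdia3* it overlapped that of WT tumors. WT tumors came second for 8 of the 10, the exceptions being *Psmb9* and *Tap2*, and their range was apart from that of the next group only for *Psme2* and *Pdia3*. By FPKM, *Psme2* was the most abundant member in KO tumors (232 ± 34.2), followed by *Psmb8* (157 ± 36.3), *Psme1* (156 ± 21.9), *Pdia3* (125 ± 9.80) and *Tapbp* (116 ± 17.8), whereas *Erap1* was the lowest (37.9 ± 4.71, SD, n = 6 each). In WT tumors *Psmb8* (67.3 ± 6.47) was below *Pdia3* (122 ± 13.5) and *Tapbp* (70.7 ± 4.96), the last within 1 SD.

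The PA28 chains were also set against each other. The ratio of *Psme2* to *Psme1* was 1.42 ± 0.19 in WT tumors and 1.49 ± 0.12 in KO tumors (n = 6 each), while lung group means lay between 0.95 and 1.18. It ranged from 1.24 to 1.76 in WT tumors and from 0.945 to 1.45 in 14-day KO lungs, so these 2 groups overlapped.

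The members varied together from library to library. With group means removed, 44 of the 45 pairs of members had a Pearson correlation above 0 over the 12 tumors (-0.16 to 0.90, median 0.58), and 42 of 45 over the 20 lungs (-0.09 to 0.90, median 0.63). The 6 KO tumors alone gave 44 of 45 (median 0.70) and the 6 WT tumors 39 of 45 (-0.49 to 0.94, median 0.39). By gene, the median correlation with the other members was highest for *Tap1* in tumors (0.71) and for *Psmb8* in lungs (0.76), and lowest for *Pdia3* in both (0.36 and 0.18). Of 13342 genes, *Igtp* (0.71), *Gbp6* (0.71), *Iigp1* (0.70) and *Gbp3* (0.70) were among the 5 with the highest mean correlation with the 10 members over all 32 libraries. They encode interferon-inducible GTPases. These correlations are descriptions, over points that share library depth and scaling.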

How the data were processed

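RNA was made from frozen tumor or lung tissue, and stranded poly(A) libraries were sequenced as paired ends. The authors aligned the reads to GRCm38 (mm10) with STAR 2.7.8a and estimated gene levels with RSEM 1.3.2. The annotation and strand setting are not given in the sources used here. The authors deposited a table of expected counts, given as whole numbers and used as such, and a table of FPKM values, which are per length of gene and scaled to the fragments of each library. No column was of unknown sample (0 left out).

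Counts were tested with the edgeR 4.0.16 quasi-likelihood test in R 4.3.3 (TMM, filterByExpr, a mean per group), with the SE taken as the log2 difference over the root of F and Benjamini-Hochberg adjustment over all genes tested (FDR). Separate fits held the 12 tumors, the 20 lungs and the 24 libraries of 14 days. Calls used an FDR below 0.05 in tumors and between tissues, an FDR below 0.25 with 1.5-fold in lungs, and an FDR below 0.25 for the lung response. Ratios were tested as log2 of (FPKM + 1) ratios by exact permutation. Scripts were tested on simulated data. Python 3.11.15, scipy 1.17.1, pandas 2.3.3, numpy 2.4.6, statsmodels 0.14.6 and matplotlib 3.10.9 were used.

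The members and lists were chosen with earlier results of these data known. Named were all members, any gene of a list of 8 or fewer, of longer lists the 2 with the smallest tumor p in each direction, the 5 genes most alike and *Clic4*. A gene that this rule names is not reported here. The 3 abundant 7S and 7SK RNAs took 8.33% to 14.1% of the counts. Replicate pairs of a group differed by more than counting noise (chi-square per degree of freedom 2.55 to 16.5 over 72 pairs), so none was merged. Alternatives were DESeq2 1.42.0, other scalings and filters, limma 3.58.1 on log2(FPKM + 1) or log2(FPKM + 0.1), a replicate block, the 2 groups alone, counts without the 7S and 7SK RNAs, and each library left out.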

Additional observations from a re-analysis of the deposited data

Results flagged for a closer look

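The genotype difference in tumors differed from that in 14-day lungs by the test of the difference itself for *Psmb8* (log2 1.36), *Psmb9* (1.47), *Psmb10* (0.73), *Tap1* (1.40) and *Tap2* (1.14).

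Single libraries stood apart from the rest of their group by Dixon's test in 7 of 60 gene and group combinations, where chance gives about 1 in 20, or 3. The genes were read in the same libraries and varied together, so the combinations are not independent and 7 against 3 is not a test. Of the 7, 4 were KO 14-day lung 2, with an FPKM of 75.1 for *Psmb8*, 39.2 for *Psmb10*, 105.9 for *Psme1* and 28.7 for *Erap1*. WT control lung 4 was high for *Psmb8* (66.9) and *Tap1* (27.2). WT control lung 1 was low for *Tap2* (15.02).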

How the results depend on the processing

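The counts of called members and the subunit ratios in tumors, without those in lungs, gave 91 values under other settings. Of these, 90 kept their direction and their side of the threshold, or stayed within 1.5 times the count. The exception was the count of members whose genotype difference was larger in tumor than in lung, 5 above and 2 with limma on log2(FPKM + 0.1), and 3 to 6 with a library left out. Where the fold limit held, the lung counts of 0 could not change. No member reached 1.5-fold in lungs under these settings, the largest difference being -0.51 (*Psmb9*, control lungs). Members called higher in KO tumors numbered 9 with DESeq2 (adding *Psme1*, FDR 0.0282) and 6 with limma or the replicate block, which lost *Psme2* (FDR 0.0965 with the block, 0.0896 and 0.0953 with limma) and *Erap1* (0.0862 with the block, 0.175 and 0.186 with limma). In no comparison did every pair of libraries with the same replicate number correlate above 0.1 (-0.25 to 0.11 in tumors, -0.13 to 0.30 in 14-day lungs). KO tumors and KO lungs came nearest, with 0.07 to 0.22 and 3 of 6 pairs over 0.1. Genes called in tumors in either direction numbered 347, 549 with DESeq2, and 182 and 175 with limma on log2(FPKM + 1) and log2(FPKM + 0.1). Those whose genotype difference was unlike in tumor and lung numbered 114, 195 with DESeq2, and 68 and 46 with limma.

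Single lung and tissue differences near 0 changed sign. With the replicate block, WT lungs at 14 days against control gave -0.01296 for *Psmb8*, -0.0214 for *Psme2* and -0.09408 for *Tap1*, KO lungs gave -0.01054 for *Erap1*, and WT tumor against lung gave 0.003541 for *Tap2*. Without a filter *Psme2* gave -0.001111 in WT lungs. With limma *Erap1* in KO lungs gave -0.002678 (FPKM + 1) and -0.002904 (FPKM + 0.1), and the *Psmb8* response difference -0.0001017 (FPKM + 1). With at least 10 counts in every library *Psmb9* gave -0.03327 and without the 7S and 7SK RNAs *Tap2* gave 0.005753 in WT tumor against lung. By TMM-scaled CPM, KO against WT was 0.009964 for *Psmb8*/*Psmb5* in control lungs and 0.1053 for *Psmb9*/*Psmb6* at 14 days. The cause was not tested.

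With a library left out, sign changes gave these ranges. WT lungs, 14 days against control, had -0.07302 to 0.3141 for *Psmb8*, -0.1201 to 0.1184 for *Psme2*, -0.1831 to 0.1647 for *Tap1*, -0.09806 to 0.08884 for *Tap2* and -0.0003844 to 0.1254 for *Erap1*. KO lungs had -0.05472 to 0.2075 for *Psmb8*, -0.06469 to 0.1342 for *Psme1*, -0.0852 to 0.2093 for *Psme2* and -0.04939 to 0.03382 for *Erap1*. KO against WT lungs at 14 days had -0.2193 to 0.1345 for *Psmb8*, -0.03965 to 0.1002 for *Psmb10*, -0.02531 to 0.2014 for *Psme1*, -0.03533 to 0.2615 for *Psme2*, -0.09065 to 0.3283 for *Tap1* and -0.03572 to 0.1484 for *Tapbp*. In control lungs it had -0.1513 to 0.1422 for *Psmb8*, -0.09703 to 0.01483 for *Psme1* and -0.07293 to 0.1607 for *Psme2*. The response difference had -0.19 to 0.194 for *Psmb8*, -0.08825 to 0.211 for *Psme2* and -0.1177 to 0.009305 for *Erap1*. Tumor against lung had -0.04271 to 0.04491 for the genotype difference of *Pdia3*, and in WT hosts -0.03308 to 0.1299 for *Psmb9* and -0.06574 to 0.06121 for *Tap2*. *Psmb8*/*Psmb5* had -0.06539 to 0.3162 in WT and -0.1495 to 0.09676 in KO lungs with against without a tumor, and -0.2364 to 0.04628 at 14 days and -0.1795 to 0.2021 in controls between genotypes. *Psmb9*/*Psmb6* had -0.09123 to 0.1227 in WT lungs and -0.1369 to 0.1342 between genotypes at 14 days, and *Psmb10*/*Psmb7* -0.05259 to 0.02456 in WT lungs.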
